A study of Mus musculus with 27 samples.

Results

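The comparison described here is that of cardiac fibroblasts from mice aged 4 weeks with cardiac fibroblasts from mice at postnatal day 1. It comprised 6 of the 27 RNA-Seq libraries of the study, 3 at each age, which were chosen by the cell type and age in their labels. All animals were C57BL/6 mice with no genetic change or treatment, and the ventricles were digested with liberase after removal of atria and valves before cells bearing PDGFRα, a receptor of the fibroblast surface, were sorted by flow cytometry. The 3 libraries of an age came from separate sets of hearts, the sex of the mice is not stated, and the values are reads counted per gene in a whole sorted population. Whole hearts of the same strain and ages, 3 libraries each, are used below for comparison. Cardiac fibroblasts of 3 later ages, 2 libraries each, are also used for comparison. These later libraries entered the fit as well, and so contributed to the filter, the scaling, and the spread behind the p values.

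Fibroblasts of the newborn heart divide and build the matrix of a growing ventricle, whereas after weaning the heart grows mainly through enlargement of its muscle cells and most cardiac fibroblasts rest. Cardiac fibroblasts secrete and organize the matrix, respond to TGF-β, Wnt, FGF, and IGF signals, and can present antigen and release complement and chemokines. Collagens, matrix metalloproteinases, and their inhibitors were set aside, and the genes outside these families are described below.

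Gene levels are given as CPM (counts per library total, scaled to a common total after TMM normalization), and values with ± are means with the SD of 3 libraries. Changes are log2 fold changes (4 weeks over postnatal day 1) with their SE, and a gene was called where edgeR's quasi-likelihood test gave an adjusted p under 0.05. Of the 18759 genes tested, 1740 (9.28%) rose and 1163 (6.20%) fell, and the median log2 fold change over all of them was 0.0039. These shares are the background of every list count below, and a count near them is not read as a result about its list. The lists were written with earlier results of these data known, and no list was tested as a set. In 28.5% of all genes tested the 3 libraries of one age did not overlap with the 3 of the other. The libraries held between 63750869 and 74710723 counts. These p values measure only the spread between the libraries, and with bulk RNA, fewer cells of a type and less RNA per cell cannot be told apart.

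All libraries carried the markers of cardiac fibroblasts. Of 10 fibroblast markers, 9 rose and none fell, while 1 fell without replicate 2 or 3 of postnatal day 1, with DESeq2, and under both other scalings of the libraries. With at least 10 counts in every sample 1 also fell. With the replicate number as a block in a fit of only the 2 ages, 8 rose. *Pdgfra*, the gene of the receptor used for sorting, measured 811, 784, and 939 CPM at postnatal day 1 and 1270.3, 1129.9, and 1139.5 CPM at 4 weeks, and the ages did not overlap (log2 fold change of 0.48 ± 0.11, adjusted p = 0.011). *Tcf21*, a transcription factor of the epicardial fibroblast lineage, was the only one of the 10 that did not pass the test, with 376, 250.3, and 256 CPM at postnatal day 1 and 223, 210.3, and 177 CPM at 4 weeks (adjusted p = 0.056). *Ddr2*, a collagen receptor gene, went from 178 ± 11.7 to 622 ± 45.9 CPM.

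Heart muscle RNA was present at postnatal day 1. The summed level of 18 heart muscle markers was 1007, 1081, and 1129 CPM at postnatal day 1 and 103, 99.8, and 272 CPM at 4 weeks, and 12 of the 18 fell, a count of 6 without replicate 1 of 4 weeks and 7 without replicate 2. The neonatal sums were 1.68%, 1.80%, and 1.88% of the mean sum in whole hearts of the same age, and those of 4 weeks were 0.102%, 0.0993%, and 0.27%. Among the genes that fell in cardiac fibroblasts, 25 of 1163 had a level at postnatal day 1 that the muscle share, multiplied by the level in whole heart, would supply to at least 50%, and 11 of these 25 were heart muscle markers. The median of that quantity over the genes that fell was 1.01%. Among the genes that rose, 57 of 1740 reached the same 50%, none of them a heart muscle marker, and the median was 1.12%. The measure is divided by the level at postnatal day 1, which selection makes low in genes that rose. At postnatal day 1, 188 of the genes that rose were at the detection limit in all libraries. The shares therefore cannot be compared between rising and falling genes, and no conclusion is drawn from them. Endothelial markers set apart 1 library of 4 weeks. The summed level of 12 endothelial markers was 831, 531, and 555 CPM at postnatal day 1 and 885, 791, and 2576 CPM at 4 weeks, so that replicate 3 of 4 weeks was far above the other 5 libraries. Only *Tek* and *Ptprb* of the 12 passed the test, both higher at 4 weeks. The median log2 fold change of the 12 was 1.07, and -0.03 without replicate 3 of 4 weeks.

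Macrophage markers summed to 303, 161, and 198 CPM at postnatal day 1 and 408, 748, and 604 CPM at 4 weeks, with no overlap, and 5 of 10 rose (*Csf1r*, *C1qa*, *Mrc1*, *Cd163*, and *Lyz2*), or 3 without replicate 2 of 4 weeks. Markers of mural cells, the pericytes and smooth muscle cells of vessels, summed to 600.4, 967, and 832 CPM at postnatal day 1 and 194, 169.8, and 298 CPM at 4 weeks. Of these 12, 6 fell and *Myh11*, a smooth muscle gene, rose. Without replicate 2 or 3 of postnatal day 1, 3 fell, and *Myh11* did not pass without replicate 3 of 4 weeks or replicate 2 or 3 of postnatal day 1. Among the genes that fell were *Notch3*, a receptor of mural cells, at 300.1, 504, and 457 CPM at postnatal day 1 and 59.9, 45.9, and 34.3 CPM at 4 weeks, and *Cspg4*, the gene of NG2, at 33.8, 58.95, and 41.9 CPM at postnatal day 1 and 7.31, 8.97, and 11.6 CPM at 4 weeks. The pan-leukocyte marker *Ptprc* and 7 lymphocyte genes gave no call, nor did 5 red cell genes, whose sums stayed between 3.86 and 22.8 CPM in all 6 libraries. Fat cell genes summed to at most 3.43 CPM. Of the epicardial and glial lists only *Tbx18* and *Ngfr* passed, both lower at 4 weeks, and the Schwann cell gene *Sox10* was at 0 in all 6 libraries. When single libraries of postnatal day 1 were left out, 1 lymphocyte gene (without replicate 1), 1 glial gene (without replicate 2 or 3), and 1 fat cell gene (without replicate 2) rose. With 3 libraries against 3, an exact permutation test (two-sided) of a summed level cannot go below p = 0.1, and p was 0.1 for the fibroblast, heart muscle, mural, macrophage, epicardial, and glial sums, 0.2 for the endothelial, 0.3 for the lymphocyte, 0.6 for the red cell, and 0.7 for the fat cell sums. Both *Xist* and Y-linked genes were read in each of the 6 libraries. *Xist* measured 200, 276, and 137 CPM at postnatal day 1 and 589.6, 379, and 413 CPM at 4 weeks, without overlap. The Y-linked *Eif2s3y* measured 18.5, 19.1, and 19.7 CPM at postnatal day 1 and 12.8, 8.89, and 14.8 CPM at 4 weeks, also without overlap. The Y-linked *Ddx3y* (24.8 to 50.8 CPM), *Kdm5d*, and *Uty* overlapped between the ages. The mix of sexes at each age is not known, and its part in the changes was not tested.

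**Figure D1:**
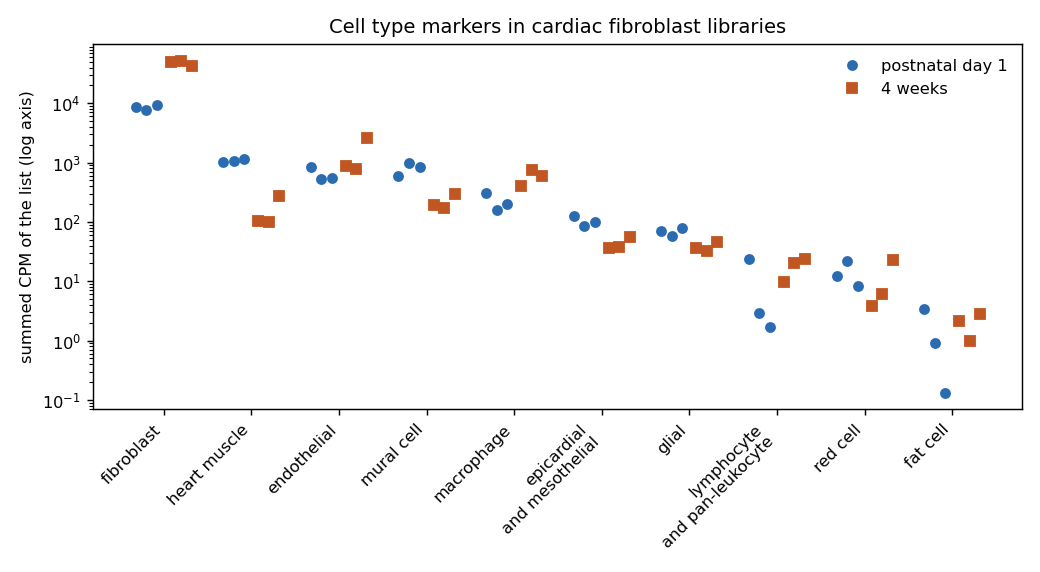
Summed CPM of 10 marker lists (log axis) in the 3 libraries of postnatal day 1 (circles) and the 3 of 4 weeks (squares). The heart muscle sums lie at or above 1007 CPM at postnatal day 1 and at or below 272 CPM at 4 weeks, and 1 library of 4 weeks stands at 2576 CPM of endothelial markers.

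The largest relative rises were in genes that were close to absent at postnatal day 1. *Duox1*, which encodes a hydrogen peroxide-producing oxidase (chr2:122315672-122347972 in GRCm38), measured 0, 0.0146, and 0.0147 CPM at postnatal day 1 and 36.1, 31.8, and 34.2 CPM at 4 weeks, at least 723-fold higher at 4 weeks when at most 3 counts per library are taken as the limit of detection. *Hmcn2*, the gene of the extracellular matrix protein hemicentin-2 (chr2:31314415-31460738), measured 0.576, 0.746, and 4.01 CPM at postnatal day 1 and 2409, 1988, and 2469 CPM at 4 weeks (log2 fold change of 10.34 ± 0.71, adjusted p = 9e-07). *Cxcl14*, a chemokine gene, measured 0.196, 0.249, and 0.235 CPM at postnatal day 1 and 65.98, 63.6, and 74.9 CPM at 4 weeks, with a small spread at both ages (log2 fold change of 8.23 ± 0.20, adjusted p = 2.1e-10). *Itih2*, whose product is a heavy chain that is transferred to hyaluronan, measured 0, 0, and 0.0147 CPM at postnatal day 1 and 13.02, 14.8, and 16.997 CPM at 4 weeks, at least 296-fold higher. *Stmn4*, of the stathmin family of tubulin-binding proteins, measured 0, 0.0146, and 0 CPM at postnatal day 1 and 24.4, 13.5, and 16.8 CPM at 4 weeks, at least 306-fold higher. The Wnt ligand gene *Wnt10b* rose at least 225-fold, to 11.2 ± 1.91 CPM. *Cmah*, which encodes the enzyme that makes N-glycolylneuraminic acid, was at 0, 0.0732, and 0 CPM at postnatal day 1 and 28.8, 26.1, and 23.7 CPM at 4 weeks.

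The other 3 of these 10 are known from immune cells or defence. *Tnfsf10*, the gene of the death ligand TRAIL, measured 0.0736, 0, and 0.0147 CPM at postnatal day 1 and 9.99, 8.92, and 21.2 CPM at 4 weeks, the highest value being that of the library with the most endothelial RNA. *H2-Q7*, a class I MHC gene with close copies that can share its reads, measured 0.0245, 0.0146, and 0.0294 CPM at postnatal day 1 and 9.24, 5.37, and 22.5 CPM at 4 weeks, again highest in that library. *Mgl2*, a C-type lectin gene of macrophages and dendritic cells, rose at least 189.7-fold to 8.35, 18.97, and 9.84 CPM, alongside the macrophage markers. The part of these cell types in the rises was not tested.

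Of the 10 largest relative falls, 7 were in genes with at most 3 counts in every library of 4 weeks. *Magel2*, an imprinted gene (chr7:62377010-62381640), measured 25.3, 34.9, and 21.8 CPM at postnatal day 1 and 0, 0, and 0 CPM at 4 weeks, at least 538-fold lower. *Igf2bp1*, an RNA-binding protein gene of fetal tissues, measured 21.6, 46.03, and 26.4 CPM at postnatal day 1 and 0.0134, 0, and 0 CPM at 4 weeks, at least 533-fold lower. *Hmga2*, which encodes an architectural chromatin protein of embryonic cells, measured 14.9, 14.2, and 1.56 CPM at postnatal day 1 and 0, 0, and 0 CPM at 4 weeks, with 1 library of postnatal day 1 far below the other 2 (at least 38.3-fold lower). *Dlk1*, an imprinted Notch-family ligand gene (chr12:109452823-109463336), measured 1254, 2218, and 1870.3 CPM at postnatal day 1 and 4.5996, 2.08, and 1.06 CPM at 4 weeks (log2 fold change of -9.43 ± 0.67, adjusted p = 1.3e-06). *H19*, the imprinted long noncoding RNA beside *Igf2* (chr7:142575529-142578143), measured 5776, 5967, and 5012 CPM at postnatal day 1 and 33.02, 32.9, and 27.9 CPM at 4 weeks (log2 fold change of -7.48 ± 0.35, adjusted p = 5.5e-08). *Nnat*, also imprinted, fell at least 196-fold. *Prlr*, the prolactin receptor gene, fell at least 190.4-fold from 18.8, 7.73, and 10.8 CPM. *Cfi*, the gene of complement factor I, measured 18.3, 4.29, and 10.5 CPM at postnatal day 1 and 0, 0, and 0 CPM at 4 weeks. *Wdr86* and *Clca3a1* completed the 10. The latter measured 187, 213, and 203 CPM at postnatal day 1 and 2.98, 0, and 0.514 CPM at 4 weeks. In each of these 20 genes the libraries of the ages did not overlap, a property that the naming rule required.

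**Figure D2:**
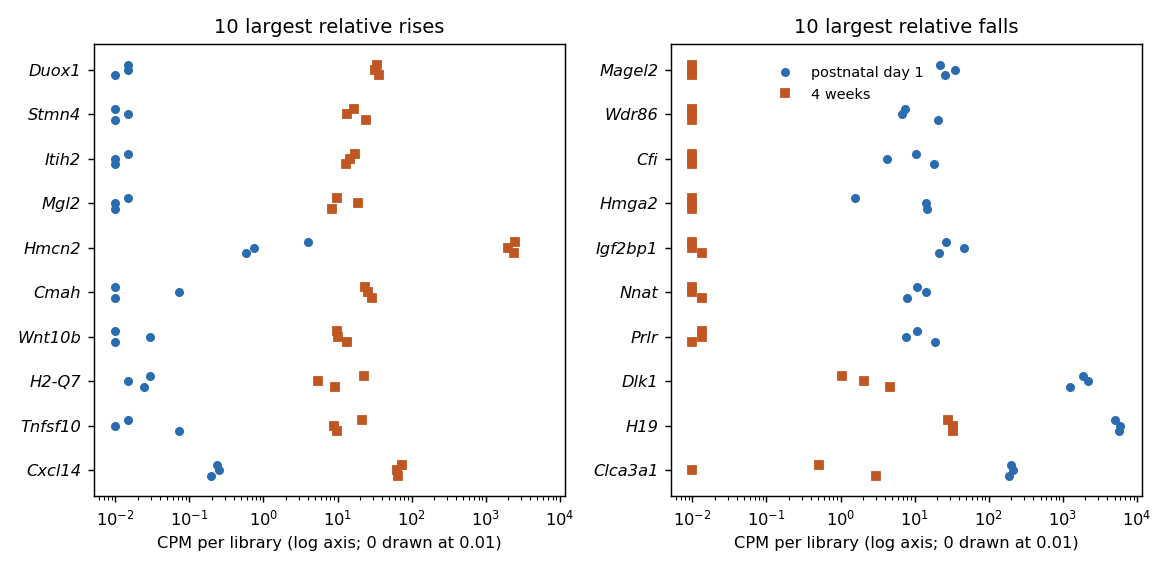
CPM of each library (log axis, with 0 drawn at 0.01) for the 10 genes with the largest relative rises and the 10 with the largest relative falls. All 10 rising genes other than *Hmcn2* lie below 1 CPM in every library of postnatal day 1, and *Magel2*, *Wdr86*, *Cfi*, and *Hmga2* lie at 0 in every library of 4 weeks.

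By the difference in CPM, 6 of the 10 largest rises were in matrix genes. *Gsn*, which encodes the actin-severing protein gelsolin, measured 3044, 2204, and 2958 CPM at postnatal day 1 and 35870.2, 37970.1, and 31149 CPM at 4 weeks (log2 fold change of 3.68 ± 0.16, adjusted p = 4.4e-08), and its difference was larger than that of any other gene that passed the naming rule. *Lrp1*, an endocytic receptor, went from 2376 ± 77.6 to 6889 ± 393 CPM. Decorin (*Dcn*) and biglycan (*Bgn*), proteoglycans that bind collagen fibrils, went from 2418 ± 255 to 6897 ± 917 CPM and from 2565 ± 216 to 5484 ± 703 CPM. *Ltbp4*, which holds latent TGF-β in the matrix, went from 4537 ± 354 to 8128 ± 466 CPM. The basement membrane genes *Lamc1* (laminin γ1) and *Hspg2* (perlecan) went from 2948 ± 171 to 6489.8 ± 111 CPM and from 5854 ± 384 to 8703 ± 504 CPM, and the tenascin gene *Tnxb* went from 2332 ± 157 to 5135 ± 249 CPM. The immediate early genes *Fos* and *Fosb* completed the list.

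Among the genes that fell most in CPM, 6 were encoded by the mitochondrial genome and 4 by the nucleus. *Postn*, the gene of periostin, a matricellular protein of growing and injured matrix, measured 6099.7, 9851, and 8617 CPM at postnatal day 1 and 1128, 1113, and 886 CPM at 4 weeks (log2 fold change of -2.97 ± 0.31, adjusted p = 3e-05). *Fn1*, the fibronectin gene, measured 5974, 8511, and 7973 CPM at postnatal day 1 and 1969.8, 1809.7, and 1959 CPM at 4 weeks (log2 fold change of -1.97 ± 0.23, adjusted p = 8.2e-05). *Igf2*, a fetal growth factor gene, measured 5706, 6275, and 5375 CPM at postnatal day 1 and 76.9, 85.3, and 127 CPM at 4 weeks (log2 fold change of -5.91 ± 0.26, adjusted p = 4.4e-08). *H19* was the other. Heart muscle RNA would supply less than 1% of the neonatal level of each of these 4.

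None of the DNA replication and mitosis genes rose. Of 25 DNA replication genes 11 fell, and of 25 mitosis genes 15 fell, against 6.20% of all genes tested. The median log2 fold changes were -1.40 and -1.81. *Mki67*, which encodes the proliferation antigen Ki-67, measured 162, 259, and 194 CPM at postnatal day 1 and 52.4, 21.6, and 69.3 CPM at 4 weeks (log2 fold change of -2.10 ± 0.37, adjusted p = 0.0017). *Top2a*, the gene of the topoisomerase that untangles replicated chromosomes, measured 109, 148, and 96.4 CPM at postnatal day 1 and 30.5, 21.8, and 52.3 CPM at 4 weeks (log2 fold change of -1.75 ± 0.31, adjusted p = 0.0019). Every library of 4 weeks was below every library of postnatal day 1 for both. The spindle genes *Tpx2* and *Bub1b* went from 55.6 ± 16.8 to 15.8 ± 5.22 CPM and from 48.95 ± 17.4 to 11.005 ± 1.36 CPM. Of the replicative helicase, *Mcm2* to *Mcm7* all fell, *Mcm4* from 62.2 ± 7.5999 to 29.4 ± 5.66 CPM. *Rrm1*, a subunit of ribonucleotide reductase, went from 67.001 ± 8.51 to 31.4 ± 1.99 CPM, and the DNA ligase *Lig1* from 43.6 ± 9.77 to 15.9 ± 2.56 CPM. *Pcna*, the sliding clamp of DNA polymerase, did not pass (54.2, 42.5, and 52.3 CPM at postnatal day 1 and 32.7, 43.4, and 60.8 CPM at 4 weeks, adjusted p = 0.77). The mitosis count varied with the fit. It was 9 without replicate 1 of 4 weeks, 8 without replicate 2 of 4 weeks, and 9 without replicate 2 of postnatal day 1. With DESeq2 it was 22, and in a fit of only the 2 ages 21. In all alternatives no mitosis gene rose, and the median log2 fold change lay between -2.06 and -1.56.

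The promoters of *Mki67* and *Top2a* are shown because late cell cycle genes are known to be controlled through CCAAT boxes and through the cell cycle homology region, whose core reads TTTGAA in many of these genes and the variant TTTAAA in some. The *Mki67* window is chr7:135716380-135716629 and the *Top2a* window chr11:99024190-99024439, both on the minus strand of GRCm38.p6, the 250 bases before the RefSeq start site, and capitals mark these motifs on either strand.
Mki67: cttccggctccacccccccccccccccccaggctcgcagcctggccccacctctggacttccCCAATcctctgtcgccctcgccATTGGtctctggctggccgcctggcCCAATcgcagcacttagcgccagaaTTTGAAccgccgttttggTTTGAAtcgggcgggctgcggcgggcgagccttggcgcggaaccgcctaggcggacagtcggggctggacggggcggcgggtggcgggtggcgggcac
Top2a: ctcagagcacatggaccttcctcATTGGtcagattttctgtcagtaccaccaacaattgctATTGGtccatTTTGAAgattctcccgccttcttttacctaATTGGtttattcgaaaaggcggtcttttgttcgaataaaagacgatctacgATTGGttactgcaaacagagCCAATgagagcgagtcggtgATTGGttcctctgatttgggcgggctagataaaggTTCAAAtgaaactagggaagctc
The *Mki67* window held 5 such matches and the *Top2a* window 8. CCAAT, counted together with its complement on the other strand (written ATTGG), was found in 34.5% of 27025 promoters of this length, 1 a gene, and in 11 of the 12 mitosis genes that fell and had an entry, as well as in 7 of 9 such DNA replication genes. TTTGAA, counted together with its complement on the other strand (written TTCAAA), was found in 16.3% of all promoters, in 6 of the 12 and 1 of the 9, and the variant TTTAAA, which is its own complement, in 12.1%, in 1 of the 12 and 1 of the 9. These are matches of letters and not measured binding.

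Of 15 cell cycle inhibitor genes, 5 rose and 1 fell, or 2 without replicate 3 of 4 weeks or replicate 1 of postnatal day 1. *Cdkn1a*, the gene of p21, measured 61.1, 43.5, and 47.5 CPM at postnatal day 1 and 222, 179, and 297 CPM at 4 weeks (log2 fold change of 2.20 ± 0.19, adjusted p = 7.8e-06). *Btg2*, an antiproliferative gene that is also an early response gene, went from 474 ± 83.1 to 1169 ± 267 CPM. *Gadd45g*, *Gadd45a*, and *Rb1* also rose. *Cdkn1c*, the imprinted gene of p57, fell and measured 263, 379, and 392 CPM at postnatal day 1 and 41.3, 54.6, and 77.6 CPM at 4 weeks (log2 fold change of -2.57 ± 0.22, adjusted p = 6.2e-06). Of 9 enzymes of DNA methylation, *Dnmt1*, *Dnmt3a*, and *Uhrf1* fell and none rose, while 1 rose without replicate 2 of 4 weeks. *Dnmt1*, the maintenance methyltransferase, went from 86.1 ± 15.8 to 50.002 ± 5.29 CPM, and *Uhrf1*, which recruits it to replicated DNA, from 34.2 ± 9.95 to 7.53 ± 2.75 CPM.

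Of 25 imprinted growth genes, 20 fell and only *Impact* rose (2 rose without replicate 3 of postnatal day 1), with a median log2 fold change of -2.07. Beside *Igf2*, *H19*, and *Dlk1*, the zinc finger gene *Peg3* measured 1713, 1798, and 1574 CPM at postnatal day 1 and 232, 227, and 226 CPM at 4 weeks (log2 fold change of -2.89 ± 0.12, adjusted p = 4.1e-08). *Mest* went from 1311 ± 261 to 58.8 ± 13.01 CPM, *Plagl1*, a transcription factor of this network, from 249 ± 26.6 to 20.02 ± 1.65 CPM, and *Grb10*, an adaptor that restrains insulin and IGF receptors, from 697 ± 142 to 182 ± 31.8 CPM. *Meg3*, the noncoding RNA of the *Dlk1* locus, went from 928 ± 344 to 392 ± 129.6 CPM. *Igf2r*, which clears IGF2, went from 1149.5 ± 82.8 to 481 ± 59.8 CPM. *Impact* went from 10.5 ± 2.86 to 22.8 ± 2.87 CPM. The 3 *Igf2bp* genes fell with them: *Igf2bp2* went from 134 ± 31.4 to 19.04 ± 6.44 CPM and *Igf2bp3* from 42.9 ± 1.61 to 0.432 ± 0.433 CPM. With *Hmga2* and *Plag1* they were 5 of 10 fetal RNA-binding and chromatin genes, of which none rose, and the median of that list was -2.82, or -1.66 with the genes at the detection limit set to their bounds. That median was -1.49 without replicate 1 of postnatal day 1.

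In the IGF system the ligands moved in opposite directions. *Igf1*, the postnatal growth factor gene, measured 114, 95.9, and 126 CPM at postnatal day 1 and 397, 431, and 286 CPM at 4 weeks (log2 fold change of 1.73 ± 0.16, adjusted p = 1.3e-05), while *Igf2* fell as given above. The binding protein genes *Igfbp4* and *Igfbp7* went from 681 ± 104 to 1509 ± 261 CPM and from 885 ± 119.9 to 1894 ± 114 CPM, and *Igfbp6*, which prefers IGF2, from 18.1 ± 3.82 to 162 ± 3.48 CPM. Of the 11 genes tested, 4 rose and 2 fell, the latter being the receptors *Igf1r* and *Igf2r*, and only 1 fell without replicate 1 or 2 of 4 weeks or replicate 2 or 3 of postnatal day 1.

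In the matrix outside the collagens, genes changed in both directions. Of 14 small leucine-rich proteoglycans 9 rose and *Aspn* (asporin) fell, with a median log2 fold change of 1.43, or 1.10 with the genes at the detection limit set to their bounds. *Lum* (lumican) measured 601, 517, and 647 CPM at postnatal day 1 and 1536, 1768, and 1262 CPM at 4 weeks (log2 fold change of 1.37 ± 0.16, adjusted p = 8.2e-05) and *Prelp* 559, 374, and 415 CPM at postnatal day 1 and 1373, 1286, and 1111 CPM at 4 weeks (log2 fold change of 1.48 ± 0.15, adjusted p = 2.5e-05). *Podn* (podocan), low at birth, went from 4.204 ± 4.16 to 164 ± 17.9 CPM, and *Aspn* from 753 ± 114 to 407 ± 27.1 CPM. Of 18 elastic fibre and lysyl oxidase genes 10 rose and 5 fell. *Eln*, the elastin gene, went from 2456 ± 324 to 4332 ± 204 CPM, a call lost without replicate 1 of 4 weeks or replicate 2 or 3 of postnatal day 1. The fibrillins diverged. *Fbn1*, the main fibrillin gene of adult microfibrils, measured 2745, 3265, and 3359 CPM at postnatal day 1 and 5417, 4897, and 4715 CPM at 4 weeks (log2 fold change of 0.68 ± 0.16, adjusted p = 0.012), whereas *Fbn2*, its fetal relative, measured 985, 868, and 1087 CPM at postnatal day 1 and 81.2, 73.3, and 41.2 CPM at 4 weeks (log2 fold change of -3.91 ± 0.31, adjusted p = 3e-06). *Fbln1* (fibulin 1) went from 379 ± 43.04 to 1701 ± 217 CPM and *Fbln2* from 1792 ± 189.6 to 2901 ± 82.5 CPM. The collagen and elastin crosslinking enzyme *Lox* fell, from 331 ± 91.5 to 93.7 ± 16.8 CPM, and so did the microfibril gene *Mfap2*, from 469.9 ± 40.02 to 106 ± 15.02 CPM, while *Mfap5* rose.

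Matricellular genes, whose products modify cell contact with the matrix, were split with 7 rising and 8 falling of 19. *Tnc*, the tenascin of growing and wounded tissue, fell from 314 ± 111 to 37.8 ± 6.91 CPM, alongside *Postn* and *Fn1*, whereas *Tnxb* rose. *Thbs1* measured 1152, 2339.8, and 2194 CPM at postnatal day 1 and 1201, 1063, and 1176 CPM at 4 weeks, close in 1 neonatal library to the libraries of 4 weeks, and its call was lost without any 1 library other than replicate 1 of postnatal day 1. *Ctgf*, a target of TGF-β and YAP, went from 85.7 ± 18.8 to 434 ± 151 CPM. *Comp* and *Wisp2*, low at birth, went from 1.72 ± 2.92 to 32.04 ± 10.9 CPM and from 1.44 ± 0.358 to 34.1 ± 5.76 CPM. Of 15 basement membrane genes 6 rose and *Agrn* (agrin) fell. *Nid1* and *Lama2* went from 3069.7 ± 221 to 4754 ± 159 CPM and from 1235 ± 138 to 2257 ± 87.4 CPM, next to *Lamc1* and *Hspg2*. *Lamb2*, the β2 chain, measured 301, 362, and 408 CPM at postnatal day 1 and 937, 948, and 981 CPM at 4 weeks (log2 fold change of 1.42 ± 0.12, adjusted p = 7e-06), whereas the β1 gene *Lamb1* measured 2412, 2463, and 2859.6 CPM at postnatal day 1 and 2523, 2658, and 2224 CPM at 4 weeks (adjusted p = 0.82).

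Among 20 ADAMTS genes 7 rose and 3 fell. *Adamtsl2*, which acts on fibrillin microfibrils, measured 156, 100.3, and 152 CPM at postnatal day 1 and 934, 937, and 756 CPM at 4 weeks (log2 fold change of 2.69 ± 0.18, adjusted p = 6.5e-07). The procollagen protease *Adamts2* went from 712 ± 105 to 1355 ± 76.2 CPM and the aggrecanase *Adamts5* from 317 ± 74.9 to 600.4 ± 52.3 CPM. *Adamts14*, which also processes procollagen, fell from 188 ± 39.5 to 47.1 ± 7.56 CPM. Of 18 hyaluronan genes 5 rose and 3 fell. The synthase *Has1* measured 4.597, 8.68, and 21.3 CPM at postnatal day 1 and 68.9, 64.2, and 233 CPM at 4 weeks, with the highest value in the library with the most endothelial RNA. *Tnfaip6*, which transfers heavy chains such as that of *Itih2* to hyaluronan, measured 13.3, 25.9, and 31.9 CPM at postnatal day 1 and 125, 128, and 265 CPM at 4 weeks (log2 fold change of 2.87 ± 0.35, adjusted p = 0.00012). *Has2* went from 23.7 ± 1.14 to 49.03 ± 13.1 CPM. The count of falls was 1 without replicate 1 or 3 of 4 weeks, or replicate 2 or 3 of postnatal day 1. *Tmem2*, a cell surface hyaluronidase, fell from 62.3 ± 6.54 to 11.8 ± 6.22 CPM.

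All 10 genes of the adventitial fibroblast list rose, against 9.28% of all genes tested, but *Anxa3* did not pass without replicate 3 of 4 weeks. As this list was written with earlier results of these data known, the count is not independent support for a change of the group. Its members *Cd55* and *Sema3c* are also counted in the complement and nerve guidance lists. *Pi16*, which marks fibroblasts around large vessels, measured 29.5, 29.8, and 30.2 CPM at postnatal day 1 and 2378, 2169.8, and 2221 CPM at 4 weeks (log2 fold change of 6.24 ± 0.21, adjusted p = 6.4e-09). *Ackr3*, a scavenging receptor for CXCL12, measured 22.7, 9.56, and 14.8 CPM at postnatal day 1 and 646, 514, and 611 CPM at 4 weeks (log2 fold change of 5.23 ± 0.29, adjusted p = 1.7e-07). *Cd34* and *Cd248* went from 615 ± 83.4 to 1946 ± 86.3 CPM and from 138 ± 38.5 to 763 ± 10.8 CPM. *Cd55*, a complement regulator of the cell surface, went from 48.2 ± 6.59 to 301 ± 20.6 CPM. *Ly6a*, the Sca-1 gene, measured 0.981, 1.49, and 0.044 CPM at postnatal day 1 and 149.7, 113, and 212 CPM at 4 weeks, and *Ly6c1* 2.91, 1.39, and 4.62 CPM at postnatal day 1 and 56.4, 37.8, and 162 CPM at 4 weeks. Both are also expressed by endothelial cells, both have close copies that can share reads, and both were highest in the library with the most endothelial RNA, but each library of 4 weeks was above each library of postnatal day 1.

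Of 15 complement genes 9 rose and *Cfi* fell (2 fell without replicate 3 of 4 weeks), with a median log2 fold change of 3.49, or 2.64 with the genes at the detection limit set to their bounds. *C3*, the central component, measured 16.8, 6.57, and 6.12 CPM at postnatal day 1 and 1017, 1052, and 1072 CPM at 4 weeks (log2 fold change of 6.73 ± 0.40, adjusted p = 3.3e-07). *Serping1*, the C1 inhibitor, measured 302, 255, and 258 CPM at postnatal day 1 and 1781, 1746, and 1573 CPM at 4 weeks (log2 fold change of 2.65 ± 0.14, adjusted p = 1.2e-07). *C1s1* and *C1ra*, proteases of the classical pathway, went from 8.84 ± 3.73 to 157 ± 8.21 CPM and from 12.4 ± 3.16 to 139 ± 18.04 CPM, *C4b* from 8.29 ± 3.25 to 97.9 ± 4.67 CPM, and *C7* from 1.38 ± 1.06 to 118 ± 16.4 CPM. None of these was highest in the library with the most endothelial RNA by more than 1.5-fold. Of 20 chemokine and cytokine genes 11 rose and none fell. *Cxcl12*, a ligand that retains blood stem cells and leukocytes, measured 41.5, 27.7, and 26.1 CPM at postnatal day 1 and 253, 184, and 349 CPM at 4 weeks (log2 fold change of 3.04 ± 0.26, adjusted p = 5.6e-06). *Il6* measured 9.54, 12.001, and 18.4 CPM at postnatal day 1 and 65.98, 61.1, and 167 CPM at 4 weeks (log2 fold change of 2.88 ± 0.37, adjusted p = 0.00018), highest in the library with the most endothelial RNA. *Csf1*, the macrophage growth factor gene, went from 119 ± 5.33 to 228 ± 13.3 CPM. *Ccl2* did not pass (54.4 ± 8.06 to 58.7 ± 17.5 CPM, adjusted p = 0.86).

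Of 17 antigen presentation genes 16 rose, and *Ciita*, the class II regulator, was read at 4 weeks in only 1 library, at 1.12 CPM. The class I gene *H2-K1* measured 29.5, 20.7, and 22.1 CPM at postnatal day 1 and 281, 327, and 498 CPM at 4 weeks (log2 fold change of 3.94 ± 0.22, adjusted p = 1.7e-07). The class I gene *H2-D1* measured 72.6, 34.7, and 56.2 CPM at postnatal day 1 and 530.5, 460.5, and 763 CPM at 4 weeks (log2 fold change of 3.42 ± 0.26, adjusted p = 2.1e-06). Both have close copies that can share reads. *B2m*, the common light chain of class I and a gene without such copies, measured 349.8, 334, and 387 CPM at postnatal day 1 and 782, 748, and 1055 CPM at 4 weeks (log2 fold change of 1.27 ± 0.14, adjusted p = 4.4e-05). *Tapbp*, of the peptide-loading complex, went from 57.96 ± 4.37 to 276 ± 3.79 CPM. *Cd74*, the class II invariant chain, measured 1.54, 1.42, and 0.117 CPM at postnatal day 1 and 42.8, 68.7, and 86.9 CPM at 4 weeks, and the class II gene *H2-Aa* 0.0736, 0.102, and 0.0734 CPM at postnatal day 1 and 8.38, 8.99, and 21.2 CPM at 4 weeks. Class II genes are typical of macrophages, dendritic cells, and B cells, and the macrophage sum was 2.66-fold higher at 4 weeks. The part of these cells was not tested.

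Of 25 interferon-stimulated genes 18 rose and none fell, with a median log2 fold change of 1.54. *Ifi27l2a* measured 20.6, 52.3, and 44.7 CPM at postnatal day 1 and 176, 177, and 131 CPM at 4 weeks (log2 fold change of 2.04 ± 0.30, adjusted p = 0.00042), and *Ifitm3* 160.3, 192, and 209.7 CPM at postnatal day 1 and 292, 305, and 327 CPM at 4 weeks (log2 fold change of 0.72 ± 0.12, adjusted p = 0.0014). *Stat2*, a signal transducer of the interferon receptors, went from 43.97 ± 7.801 to 117 ± 31.6 CPM. *Gbp2* measured 3.44, 5.56, and 4.86 CPM at postnatal day 1 and 42.7, 42.96, and 119 CPM at 4 weeks, highest in the library with the most endothelial RNA. Without that library, 15 of the 25 rose and *Irf1* fell (log2 fold change -0.73), and 12 of the 17 antigen presentation genes rose.

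**Figure D3:**
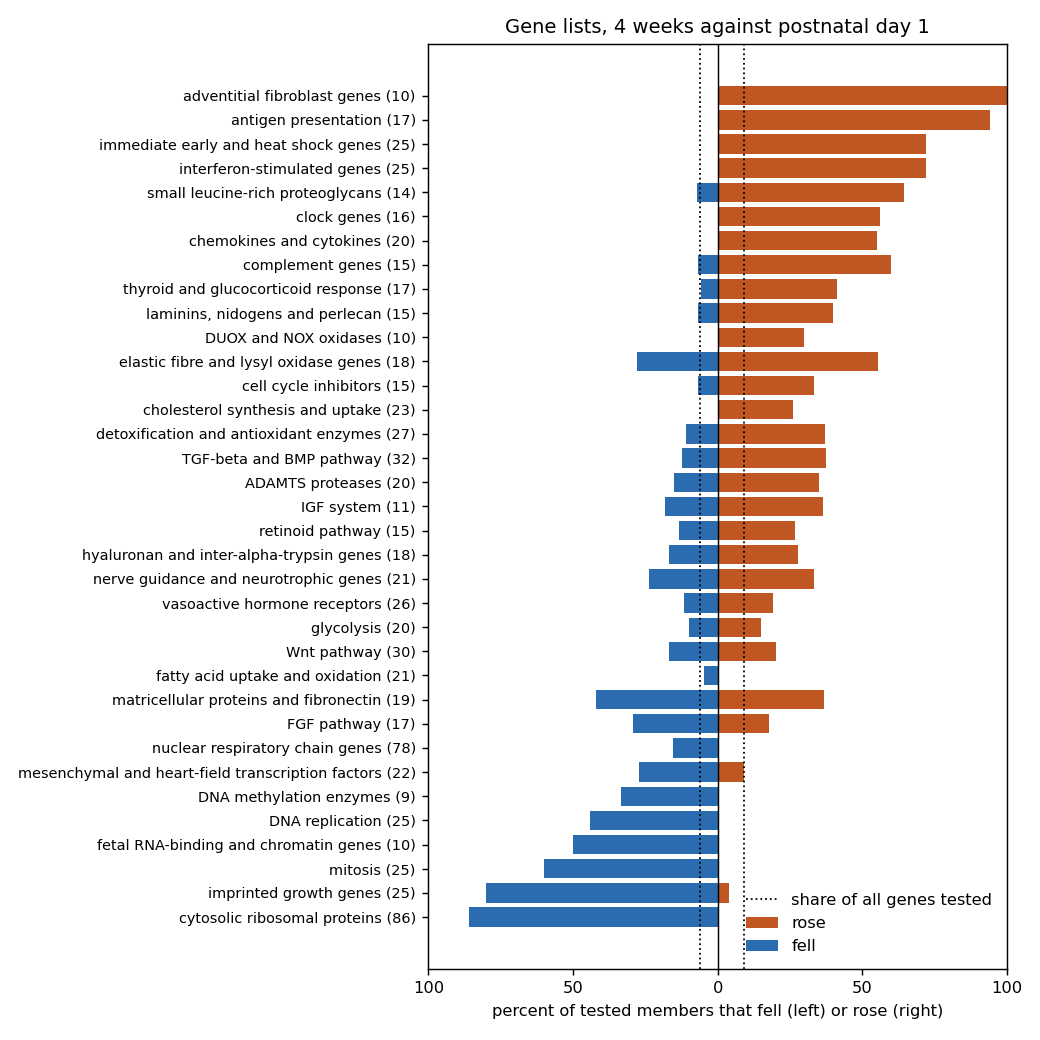
Percent of the tested members of 35 gene lists that rose (right) or fell (left), with the number tested in parentheses and dotted lines at the shares over all genes tested, 9.28% and 6.20%. All 10 adventitial genes and 16 of 17 antigen presentation genes rose, and 74 of 86 ribosomal protein genes and 20 of 25 imprinted genes fell.

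Early response genes, whose transcription answers stimulation or stress within minutes, and heat shock genes gave 18 rises of 25 and no fall. *Fos* measured 2897, 1882, and 1523 CPM at postnatal day 1 and 5651, 5392, and 4296 CPM at 4 weeks (log2 fold change of 1.28 ± 0.20, adjusted p = 0.00082), *Fosb* 2235, 2336, and 2229 CPM at postnatal day 1 and 6056, 5069, and 7038 CPM at 4 weeks (log2 fold change of 1.42 ± 0.13, adjusted p = 1.3e-05), and *Jun* 2125, 1349.8, and 1227 CPM at postnatal day 1 and 4619, 4189, and 3980.4 CPM at 4 weeks (log2 fold change of 1.44 ± 0.18, adjusted p = 0.00015). These genes encode subunits of the AP-1 transcription factor. *Klf4* measured 446, 563, and 636 CPM at postnatal day 1 and 2751, 2538, and 3709 CPM at 4 weeks (log2 fold change of 2.45 ± 0.19, adjusted p = 2.2e-06). *Egr1* rose least of those called, from 5140.4 ± 1270.0 to 7333 ± 267 CPM. In whole hearts, which were not digested to single cells, the mean of *Fos* was 6.31 CPM at postnatal day 1 and 5.58 CPM at 4 weeks, and that of *Fosb* 2.72 and 4.5997 CPM. The part of cell isolation in the difference between the ages was not tested.

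Of 16 clock genes 9 rose and none fell (1 fell without replicate 1 of 4 weeks), with a median log2 fold change of 1.31. The repressor *Nr1d1* (REV-ERBα) measured 10.1, 4.11, and 6.33 CPM at postnatal day 1 and 147, 131, and 222 CPM at 4 weeks (log2 fold change of 4.60 ± 0.36, adjusted p = 2.6e-06). *Bhlhe40*, a repressor of the clock that also responds to stress, measured 66.1, 73.2, and 118 CPM at postnatal day 1 and 578, 536, and 799 CPM at 4 weeks (log2 fold change of 2.90 ± 0.22, adjusted p = 2.2e-06). *Dbp* and *Nr1d2* went from 10.3 ± 4.72 to 66.4 ± 25.5 CPM and from 26.2 ± 3.3003 to 87.98 ± 41.3 CPM. The activator *Arntl* (BMAL1) measured 19.7, 18.5, and 24.1 CPM at postnatal day 1 and 65.7, 81.6, and 20.8 CPM at 4 weeks, with 1 library of 4 weeks at the neonatal level, and *Per1*, *Per2*, *Cry1*, and *Cry2* did not pass. The time of day at which hearts were taken is not given. Of 17 genes of thyroid and glucocorticoid response 7 rose and *Fkbp5*, a glucocorticoid target, fell, while none fell without replicate 1 or 3 of 4 weeks or replicate 3 of postnatal day 1. *Dio2*, the deiodinase that activates thyroid hormone, measured 4.54, 6.37, and 7.46 CPM at postnatal day 1 and 75.4, 57.5, and 41.2 CPM at 4 weeks (log2 fold change of 3.25 ± 0.25, adjusted p = 2.6e-06). The thyroid hormone target *Hr* measured 86.7, 57.9, and 87.5 CPM at postnatal day 1 and 376, 358, and 247 CPM at 4 weeks (log2 fold change of 2.08 ± 0.20, adjusted p = 1.8e-05). The glucocorticoid receptor gene *Nr3c1* went from 117 ± 9.86 to 229.8 ± 27.3 CPM.

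Among 32 TGF-β and BMP genes 12 rose and 4 fell, the latter being 2 without replicate 3 of 4 weeks or replicate 1 of postnatal day 1. Of the ligands, *Tgfb1* and *Tgfb3* rose, from 60.7 ± 5.17 to 95.8 ± 18.6 CPM and from 145 ± 13.6 to 234 ± 47.2 CPM, while *Tgfb2* fell from 125 ± 13.3 to 70.2 ± 16.7 CPM. The receptors *Tgfbr2* and *Tgfbr3* went from 232 ± 47.3 to 453 ± 59.9 CPM and from 145 ± 19.2 to 339 ± 29.2 CPM, while *Tgfbr1* fell from 95.8 ± 10.5 to 64.5 ± 5.62 CPM. The calls of *Tgfb1* and *Tgfbr1* were lost without replicate 3 of 4 weeks. The latency protein genes *Ltbp1*, *Ltbp2*, *Ltbp3*, and *Ltbp4* all rose. In the Wnt pathway 6 of 30 rose and 5 fell, and the falls came to 2 without replicate 1 of either age and to 3 without replicate 2 of either age or replicate 3 of postnatal day 1. The ligands *Wnt5a*, *Wnt9a*, and *Wnt11* rose, from 22.5 ± 3.97 to 53.9 ± 14.7 CPM, 12.1 ± 3.19 to 35.4 ± 7.401 CPM, and 8.205 ± 5.38 to 42.5 ± 10.02 CPM, beside *Wnt10b*, which was not on that list. The secreted inhibitors *Sfrp2* and *Frzb* fell, from 144 ± 24.4 to 46.3 ± 13.6 CPM and from 141 ± 34.1 to 78.8 ± 9.97 CPM. *Axin2*, a general target of the pathway, did not pass (8.01 ± 0.727 to 5.54 ± 3.37 CPM, adjusted p = 0.56).

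In the FGF pathway 3 of 17 genes rose and 5 fell, against 9.28% and 6.20% of all genes tested. The ligand genes *Fgf2*, *Fgf7*, and *Fgf18* rose, and *Fgf2* measured 26.98, 12.7, and 24.03 CPM at postnatal day 1 and 96.2, 82.6, and 40.4 CPM at 4 weeks (log2 fold change of 1.78 ± 0.32, adjusted p = 0.0019). The call of *Fgf7* was lost without replicate 3 of 4 weeks. The receptor *Fgfr2* measured 49.4, 43.1, and 61.7 CPM at postnatal day 1 and 4.41, 4.39, and 3.03 CPM at 4 weeks (log2 fold change of -3.70 ± 0.36, adjusted p = 1.8e-05), whereas *Fgfr1*, another receptor, measured 507, 469.7, and 515 CPM at postnatal day 1 and 686, 611, and 604 CPM at 4 weeks (adjusted p = 0.058). The feedback inhibitors *Spry2* and *Spry4* fell from 178 ± 12.3 to 106 ± 15.01 CPM and from 116 ± 13.5 to 63.001 ± 6.61 CPM, as did the targets *Etv4* and *Etv5*. Of 15 retinoid genes 4 rose and 2 fell, against 9.28% and 6.20% of all genes tested. Only 1 fell without replicate 3 of 4 weeks or replicate 2 or 3 of postnatal day 1. *Aldh1a2*, the main embryonic enzyme of retinoic acid synthesis, measured 267, 279, and 299.8 CPM at postnatal day 1 and 147, 150.0, and 68.7 CPM at 4 weeks (log2 fold change of -1.21 ± 0.28, adjusted p = 0.0098), while *Aldh1a1* went from 51.4 ± 11.1 to 80.7 ± 4.17 CPM.

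Of 22 mesenchymal and heart-field factors 6 fell and 2 rose. *Tbx20* measured 864, 972, and 993 CPM at postnatal day 1 and 439, 478, and 303 CPM at 4 weeks (log2 fold change of -1.21 ± 0.18, adjusted p = 0.00053) and *Gata4* 295, 205, and 216 CPM at postnatal day 1 and 142, 107, and 102 CPM at 4 weeks (log2 fold change of -1.03 ± 0.18, adjusted p = 0.0015). *Tbx18*, *Gata6*, *Tbx2*, and *Hand2* also fell. *Foxc1* and *Prrx1* rose, *Foxc1* from 24.2 ± 2.97 to 84.5 ± 10.5 CPM. The calls of *Hand2* and *Prrx1* were lost without replicate 3 of 4 weeks. The muscle share would supply 0.349% of the neonatal *Tbx20* level and 1.29% of that of *Gata4*. Of 26 receptors for vasoactive hormones 5 rose and 3 fell, against 9.28% and 6.20% of all genes tested. The rises came to 3 without replicate 1 or 2 of 4 weeks. *Agtr2*, the fetal angiotensin receptor, went from 29.8 ± 4.704 to 2.12 ± 1.103 CPM, and *Npr3*, the natriuretic peptide clearance receptor, measured 28.3, 32.5, and 39.01 CPM at postnatal day 1 and 4.55, 3.34, and 5.55 CPM at 4 weeks (log2 fold change of -2.89 ± 0.40, adjusted p = 0.00028). *Npr1*, the signalling receptor of these peptides, rose from 56.8 ± 6.998 to 99.3 ± 24.9 CPM, and *Ptgfr*, the prostaglandin F receptor, rose at least 117-fold. Of 21 nerve guidance genes 7 rose and 5 fell, and the falls came to 2 without replicate 1 or 3 of 4 weeks or replicate 3 of postnatal day 1 and to 3 without replicate 2 of postnatal day 1. *Ntn1* (netrin 1) measured 208, 177, and 184 CPM at postnatal day 1 and 688, 685, and 646 CPM at 4 weeks (log2 fold change of 1.82 ± 0.11, adjusted p = 3.9e-07), *Ntn4* 10.5, 4.2004, and 14.6 CPM at postnatal day 1 and 145, 126, and 128 CPM at 4 weeks, and *Sema3c* 66.4, 48.4, and 75.5 CPM at postnatal day 1 and 297, 327, and 297 CPM at 4 weeks. *Ncam1*, a cell adhesion molecule of developing tissue, fell from 131 ± 14.5 to 20.6 ± 4.79 CPM, and the repellent *Slit2* from 200.4 ± 20.1 to 87.3 ± 14.6 CPM.

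Of 86 cytosolic ribosomal protein genes 74 fell and none rose, with a median log2 fold change of -0.81. Their summed level was 17992, 20308, and 21619 CPM at postnatal day 1 and 10769, 12085, and 11545 CPM at 4 weeks. Ribosomal protein genes have many processed copies in the genome that can share their reads. The direction held under each scaling of the libraries, with medians between -0.89 and -0.81.

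RNA of the mitochondrial genome took 9.05%, 9.18%, and 6.15% of the counts at postnatal day 1 and 1.88%, 2.09%, and 3.73% at 4 weeks. Of its 26 genes tested, a list drawn up after the values were seen, 10 fell and none rose. *mt-Co1*, a subunit of cytochrome c oxidase, measured 29463, 30425, and 19221 CPM at postnatal day 1 and 6805, 7431, and 13182 CPM at 4 weeks (log2 fold change of -1.53 ± 0.38, adjusted p = 0.015), and *mt-Nd1*, of complex I, 13165, 16510.0, and 11878 CPM at postnatal day 1 and 2087, 2588, and 4879 CPM at 4 weeks (log2 fold change of -2.12 ± 0.42, adjusted p = 0.0041). *mt-Cytb*, *mt-Nd2*, *mt-Nd4*, and *mt-Nd5* had log2 fold changes between -1.51 and -1.38. In each of these 6 the highest value of 4 weeks was that of the library with the most heart muscle and endothelial RNA of its age. Without replicate 1 or 2 of 4 weeks only 2 of the 26 fell, and without replicate 1 or 2 of postnatal day 1 it was 5 and 4. *mt-Co2*, *mt-Co3*, *mt-Atp6*, *mt-Atp8*, *mt-Nd3*, and *mt-Nd4l* were at or below 1.39 CPM in all 6 libraries, against at least 6805 CPM for *mt-Co1*, so that their levels cannot be read from these counts. Of 78 nuclear respiratory chain genes 12 fell and none rose (median log2 fold change -0.31), against 6.20% and 9.28% of all genes tested. Of these genes 7 fell without replicate 1 of 4 weeks, and 1 rose without replicate 1 of postnatal day 1.

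Of 20 glycolysis genes 3 rose and 2 fell, against 9.28% and 6.20% of all genes tested. The falls came to 1 without replicate 1 or 2 of 4 weeks and to 5 without replicate 1 of postnatal day 1. *Hk2* (hexokinase 2) went from 22.6 ± 11.95 to 80.3 ± 29.7 CPM and *Pfkp* from 39.3 ± 12.1 to 105 ± 5.91 CPM, while *Gapdh* measured 175, 245, and 215 CPM at postnatal day 1 and 197, 194, and 222 CPM at 4 weeks (adjusted p = 0.87). Of 21 genes of fatty acid uptake and oxidation only *Fabp5* passed, lower at 4 weeks (61.9, 118, and 91.5 CPM at postnatal day 1 and 16.9, 7.97, and 38.7 CPM at 4 weeks). *Fabp4* and *Cd36*, typical of capillary endothelium, measured 727 and 394 CPM in the library with the most endothelial RNA and at most 142 and 92.4 CPM in the other 2 of its age. Of 23 cholesterol genes 6 rose and none fell, among them the regulator *Srebf2*, at 52.1, 59.4, and 33.5 CPM at postnatal day 1 and 188, 175, and 98.4 CPM at 4 weeks (log2 fold change of 1.67 ± 0.25, adjusted p = 0.00059). Of 27 detoxification and antioxidant genes 10 rose and 3 fell. *Sod3*, the extracellular superoxide dismutase, measured 84.98, 37.8, and 56.3 CPM at postnatal day 1 and 479.8, 472, and 352 CPM at 4 weeks (log2 fold change of 2.86 ± 0.25, adjusted p = 7.1e-06), whereas the cytosolic *Sod1* fell from 151 ± 23.4 to 98.9 ± 14.2 CPM. *Ephx1* went from 49.5 ± 8.46 to 148 ± 8.03 CPM and *Aox1* from 7.16 ± 3.24 to 46.6 ± 24.2 CPM.

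Of 10 DUOX and NOX genes *Duox1*, *Duoxa1*, and *Nox4* rose and none fell. *Duoxa1*, which encodes the factor that matures DUOX1, measured 0, 0, and 0 CPM at postnatal day 1 and 6.69, 10.2, and 7.29 CPM at 4 weeks, at least 152-fold higher. The genes lie head to head, with 1941 bases between *Duoxa1* (chr2:122302191-122313730, minus strand) and *Duox1* (plus strand), and strand use in the counting is not given. The 250 bases before *Duox1*, chr2:122315422-122315671 on the plus strand of GRCm38.p6 from RefSeq, are shown because they lie between these genes, which rose together. Capitals again mark the letters named for the cell cycle promoters, of which 1 match, TTTGAA, was found and no CCAAT.
Duox1: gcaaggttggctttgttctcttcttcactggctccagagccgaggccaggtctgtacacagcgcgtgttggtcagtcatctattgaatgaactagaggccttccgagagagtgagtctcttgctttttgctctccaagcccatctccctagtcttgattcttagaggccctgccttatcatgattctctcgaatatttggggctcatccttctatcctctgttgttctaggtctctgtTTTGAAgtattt
*Duox2* was read in 1 library of each age only and *Duoxa2* in none. *Nox4* measured 3.53, 6.29, and 2.804 CPM at postnatal day 1 and 5.39, 14.6, and 15.8 CPM at 4 weeks, with overlap between the ages, and its call was lost in 6 alternatives.

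The later ages place these levels in sequence, at 14 weeks, at 1 year, and at 1.5 years, with 2 libraries each and no test here. *Igf2*, *H19*, and *Dlk1* stayed low, with means of at most 93.5, 22.7, and 2.04 CPM. *Mki67* went on to 6.45, 2.18, and 4.09 CPM. *C3* was at 5506, 21887, and 15866 CPM, all above its level at 4 weeks, and *Cxcl14* at 268, 929.9, and 523 CPM. *Hmcn2*, in contrast, was at 1721, 1903, and 957 CPM, below its level at 4 weeks. The cytosolic ribosomal protein genes summed to 16067.5, 17329, and 18179 CPM, above their mean at 4 weeks (11466 CPM) and below that at postnatal day 1 (19973 CPM). Macrophage markers summed to 59.5, 21.8, and 95.9 CPM, below their means at postnatal day 1 (221 CPM) and 4 weeks (586 CPM).

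**Figure D4:**
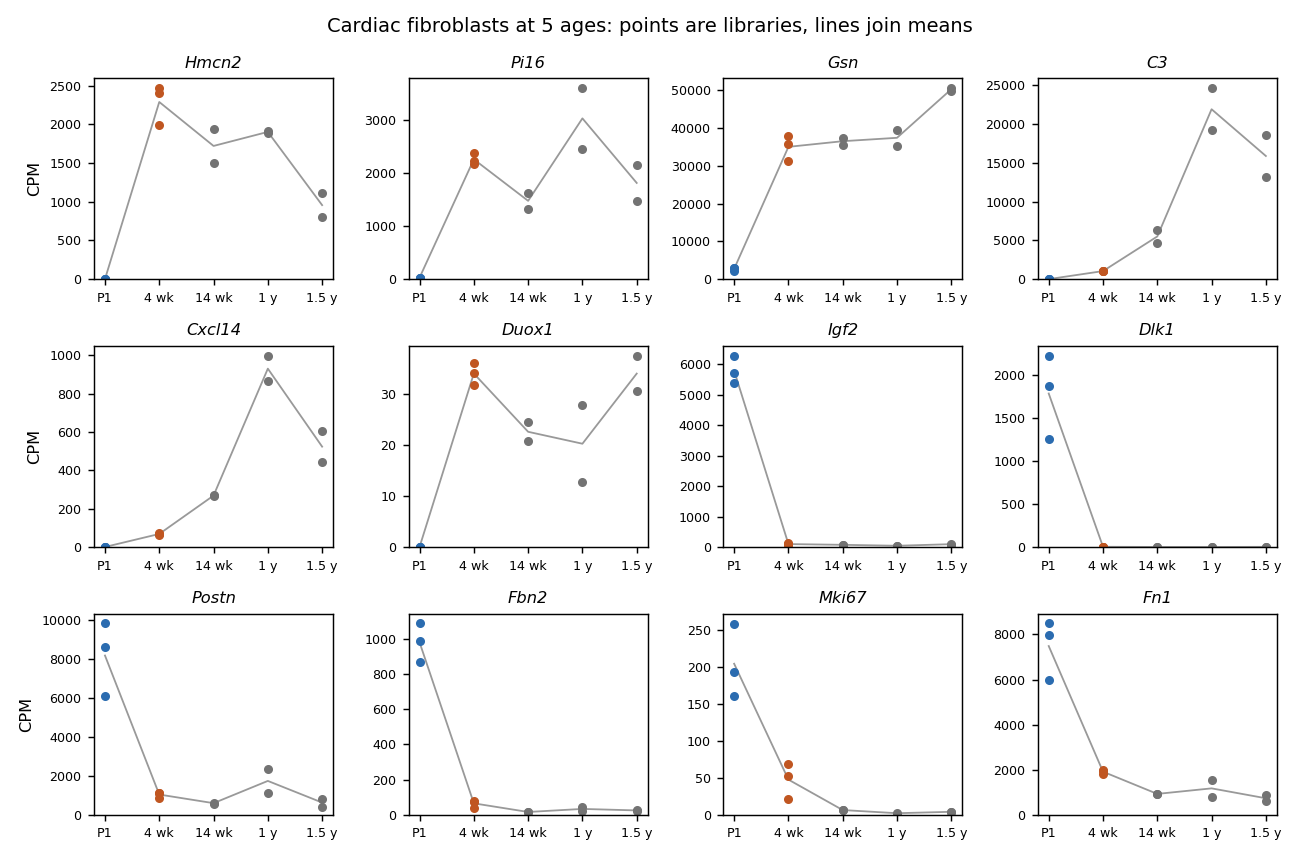
CPM of 12 genes in all 12 cardiac fibroblast libraries (points) by age, with lines joining the means: 3 libraries at postnatal day 1 (P1) and 4 weeks, 2 at each later age. *Igf2*, *Dlk1*, *Postn*, *Fbn2*, *Mki67*, and *Fn1* are highest at postnatal day 1, and *C3* and *Cxcl14* are higher at each later age than at 4 weeks.

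Whether a change differed from that of the whole heart was tested for the 39 genes named by size, as the interaction of tissue and age over all 27 libraries. It passed for 20 of the 39. It passed for 7.14% of all 20650 genes in that fit, but the 39 were picked for their large changes in cardiac fibroblasts, which favours such differences, so nothing is read from the comparison of these shares. *Hmcn2* rose in both tissues, but by 6.14 ± 0.68 more on the log2 scale in cardiac fibroblasts (adjusted p = 3.1e-06), and *Cxcl14* by 3.97 ± 0.33 more (adjusted p = 5.6e-08). *Igf2* and *H19* fell in both, with differences of -2.23 ± 0.32 and -2.27 ± 0.39. The estimates of the 6 mitochondrial genes had opposite signs in the tissues, and the rise in whole heart passed for all of them but *mt-Nd1* (adjusted p = 0.14). *mt-Co1* went from 26369.6 to 9139 CPM in cardiac fibroblasts and from 28836 to 79440.0 CPM in whole hearts. *Postn* and *Fn1* did not pass the test of a difference (adjusted p = 0.97 and 0.43). Whole hearts contain fibroblasts, so the tissues are not independent views of these genes.

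**Figure D5:**
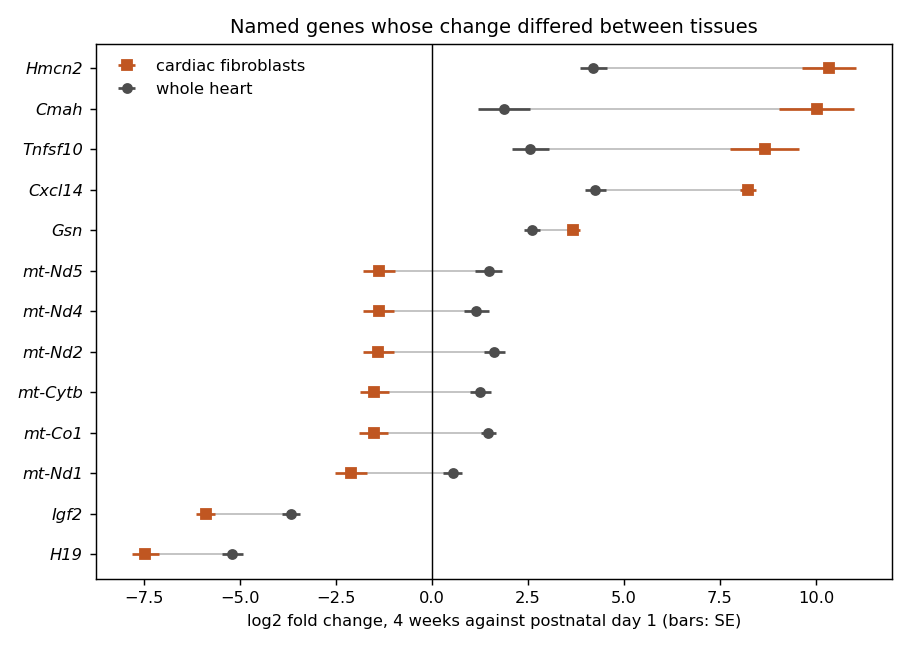
Log2 fold change at 4 weeks against postnatal day 1 in cardiac fibroblasts (squares) and whole heart (circles), with bars for the SE, for 13 named genes whose change differed between the tissues and which had over 3 counts in some library of each age. *mt-Co1* lies at -1.53 in cardiac fibroblasts and 1.46 in whole heart, and *Hmcn2* at 10.34 and 4.19. *Cmah* and *Tnfsf10* were close to absent in cardiac fibroblasts at postnatal day 1 (means of 0.0244 and 0.0294 CPM), so their fitted values depend on the prior count.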

How the data were processed

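RNA-Seq was made from PDGFRα-sorted cardiac fibroblasts and whole hearts of C57BL/6 mice. The deposited values are raw counts of reads per gene, which the authors made by aligning reads to mm10 with STAR 2.5.3a, according to the submitters' processing notes; the strand setting of the counting is not given in the sources used here. Labels gave each sample's tissue and age, which set the groups.

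Counts of the 12 cardiac fibroblast libraries (5 ages) were fitted together in edgeR 4.0.16 (R 4.3.3) with TMM scaling, filterByExpr by age, a quasi-likelihood F test of 4 weeks against postnatal day 1, and Benjamini-Hochberg adjustment over the 18759 genes tested of 22855. SEs were derived from each log2 fold change and its F statistic. Replicates came from different hearts. A library with at most 3 counts of a gene was taken as at the detection limit, which covers counting error only; where all libraries of an age were at it, a bound replaced the fitted fold change. Whole hearts entered the interaction test (all 27 libraries, edgeR) and the estimate of muscle RNA. Summed marker levels were compared by an exact permutation test (scipy 1.17.1).

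The genes and lists described were chosen with earlier results of these data known. Genes were named by the 10 largest rises and falls in fold and in CPM among called genes with no overlap and a mean of at least 10 CPM at one age, and by up to 4 called members of each list ranked by the difference in CPM. Collagens, MMPs, TIMPs, and unnamed models were left out. Other genes named beside counts were chosen after their values were seen. Gene coordinates are those of GENCODE M21 (GRCm38) and promoter sequences those of RefSeq.

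Alternatives were DESeq2 1.42.0, median-of-ratios and library-size scaling, other filters on low counts, a fit of only the 2 ages, the replicate number as a block, a 2-fold minimum, and each library left out in turn. Leaving out genes at the level of muscle carry-over was added after seeing the data. Scripts were tested on simulated data. Figures were drawn with matplotlib 3.10.9. Items withheld from this text are not reported here.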

Additional observations from a re-analysis of the deposited data

Results flagged for a closer look

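For 20 of the 39 genes named by size, the change over the first 4 weeks was not the same in cardiac fibroblasts and in whole heart by the test of the tissue and age interaction. These genes were picked for large changes in cardiac fibroblasts, which favours such differences. The differences below are the change in cardiac fibroblasts minus that in whole heart, on the log2 scale. Among rising genes with reads at both ages the difference was 6.14 for *Hmcn2*, 3.97 for *Cxcl14*, and 1.07 for *Gsn*. It was 8.11 for *Cmah* and 6.07 for *Tnfsf10*, which were close to absent in cardiac fibroblasts at postnatal day 1 (means of 0.0244 and 0.0294 CPM). The difference was 9.30 for *Stmn4*, 9.30 for *Itih2*, 4.94 for *Mgl2*, and 4.47 for *H2-Q7*. These 4 were at the detection limit in all cardiac fibroblast libraries of postnatal day 1. The fitted values of these 4, and of *Cmah* and *Tnfsf10*, depend on the prior count.

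Among falling genes the difference was -2.23 for *Igf2* and -2.27 for *H19*. It was -6.98 for *Magel2*, -6.52 for *Igf2bp1*, and -10.27 for *Prlr*, genes at the detection limit at 4 weeks, for which the fitted values again depend on the prior count. The genes of the mitochondrial genome gave -3.003 for *mt-Co1*, -2.67 for *mt-Nd1*, -2.78 for *mt-Cytb*, -2.87 for *mt-Nd5*, -3.04 for *mt-Nd2*, and -2.56 for *mt-Nd4*. No group of 4 or more libraries was part of the comparison, so no single library was tested as standing apart.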

How the results depend on the processing

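The number of genes that rose (1740) lay between 1485 and 1743, and the number that fell (1163) between 874 and 1088, when each library was left out in turn. A 2-fold minimum left 1130 rises and 606 falls, and DESeq2 called 1933 falls. A fit of only the 2 ages, without the later libraries, gave 1213 rises and 952 falls. For the members of the function lists, 211 rose and 199 fell, and with the 2-fold minimum 107 fell. By list, DESeq2 called 9 falls in place of 5 among Wnt genes, 6 rises in place of 3 among FGF genes, 8 rises in place of 5 among vasoactive receptors, and 3 falls in place of 1 among fatty acid genes. With at least 10 counts in every sample, detoxification genes gave 5 rises in place of 10, and the fetal list gave 2 falls in place of 5 and a median log2 fold change of 0.04. The interaction of tissue and age was called for 1475 genes, or 947 with only the 2 ages in the fit. Without the genes at the level of muscle carry-over, 1683 rose and 1138 fell. None of the 193 called named genes reversed in direction under any alternative.

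The replicate numbers did not pair the samples: the deviations of same-numbered libraries correlated at 0.0052, 0.013, and 0.0033, and not every library of 4 weeks correlated best with its own number. With the replicate number as a block, 990 genes rose and 780 fell in the fit of only the 2 ages, and 1285 rose and 813 fell over all ages.

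For the summed marker levels (log2 ratio of 4 weeks to postnatal day 1), the mean log2 CPM over the list in place of the sum gave 1.23 against 2.496 for fibroblast markers, -0.73 against -1.86 for mural cell markers, 0.21 against -0.86 for glial markers, and -0.35 against 0.40 for fat cell markers. With each library left out in turn, lymphocyte markers ranged from 0.42 to 2.97, red cell markers from -1.54 to 0.080, and fat cell markers from -0.14 to 1.94. The causes were not tested. With 3 libraries an age, the spread between libraries limits what small or low-count changes can be called.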
